A study of Homo sapiens with 9 samples.

Results

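The genes of coenzyme Q (CoQ, ubiquinone) synthesis were followed in MDA-MB-231 cells, an established human triple-negative breast cancer line, before and after treatment with the copper chelator TEPA. The 10 genes were PDSS1, PDSS2, COQ2, COQ6, COQ3, COQ4, COQ5, COQ7, COQ9 and COQ8A, out of 59453 gene names in the count table. All 10 passed the filter on low counts that kept 16556 genes for testing. COQ3 was picked on its low level at 24 h in these same libraries, and the other 9 genes were taken as the rest of its pathway. The levels of COQ3 are therefore given as a description with no test, and counts of changed genes are over the other 9.

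RNA sequencing was done on 3 libraries of untreated cells, 3 libraries of cells given TEPA for 8 h and 3 libraries of cells given TEPA for 24 h. The GEO labels give the TEPA concentration as 8 mM, whereas the RNA sequencing methods of the study give 4 mM. Its methods on cell treatments list both 4 and 8 mM for this line, so the concentration is not settled. All cells came from the same line and were grown in the same medium with serum, and 1 untreated group stands as the control for both times. The labels give no harvest time for these untreated cells. Time in culture and time with TEPA therefore cannot be told apart. No source used here states that the replicates were separate cultures, so the p-values measure the spread between these libraries, which may be technical.

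CoQ is a lipid of the inner mitochondrial membrane that carries electrons from complex I, complex II and several other dehydrogenases to complex III, and its reduced form is also an antioxidant. Its isoprenoid tail is built from products of the mevalonate pathway by the enzyme made of PDSS1 and PDSS2. COQ2 joins the tail to a benzoate ring, and the ring is then modified by enzymes that include COQ6, COQ3, COQ4, COQ5 and COQ7. COQ9 binds lipids and works with COQ7, and COQ8A is an atypical kinase-like protein needed for the pathway. Several of these proteins assemble into a complex on the matrix side of the inner membrane.

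The libraries held 34633755 to 49342659 counts each. VIM, a mesenchymal marker, was at 3242 to 4435 CPM (counts scaled to the same library size in every library) and CD44 was at 793 to 1105 CPM. The epithelial keratins KRT8 (328 to 438 CPM) and KRT18 (246 to 308 CPM) were present, whereas EPCAM stayed between 0.834 and 1.86 CPM and CDH1 between 0.25 and 3.89 CPM. Of the receptors that define the triple-negative type, ESR1 had 2 to 9 counts, PGR had 0 counts in every library, and ERBB2 was at 51.9 to 87.1 CPM. The 8 h libraries had 3.61 to 4.02% of their counts on mitochondrially encoded genes, against 1.79 to 2.91% in untreated and 1.89 to 2.02% in 24 h libraries. Whether this share had a part in the 8 h values below was not tested. The untreated replicates 1 and 2 differed most among the pairs of replicates (mean chi-square per gene of 21.25, against 2.387 to 8.618 for the other pairs).

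COQ3, the methyltransferase that adds the ring's methyl groups on oxygen, had the lowest 24 h level relative to untreated cells among the 10 genes. The untreated libraries held 307, 479 and 378 COQ3 counts, the 8 h libraries 295, 274 and 247, and the 24 h libraries 75, 64 and 85. As CPM, scaled by TMM library factors so that a gene can be compared between libraries, COQ3 was at 8.18, 10.5 and 9.59 in untreated cells, 7.37, 7.16 and 6.72 at 8 h, and 1.47, 1.48 and 2.36 at 24 h. The 3 groups did not overlap, and the highest 24 h library was below the lowest 8 h library.

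Averaged over the 3 libraries of a group, COQ3 was at 9.42 ± 1.16 CPM (SD, n = 3) without TEPA, and the means were 7.09 ± 0.334 CPM after 8 h and 1.77 ± 0.512 CPM after 24 h. The fitted log2 fold change (edgeR) was −0.41 ± 0.12 (SE) at 8 h and −2.44 ± 0.15 at 24 h, a level 5.43-fold lower than in untreated cells. Between 8 h and 24 h the log2 difference was −2.03 ± 0.15, and it was −2.26 without TEPA 24 h replicate 3, the highest of the 24 h libraries. Within the 24 h group the coefficient of variation was 28.9%, where counting error alone would give 11.6%. Among all 16556 genes tested, 26 (0.157%) had a lower log2 fold change than COQ3 at 24 h, whereas 2085 (12.6%) had a lower one at 8 h. COQ3 lies on the minus strand at chr6:99369401-99394195 (hg38, GENCODE v44), and its MANE Select transcript has 7 exons and 1325 bases.

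**Figure D1:**
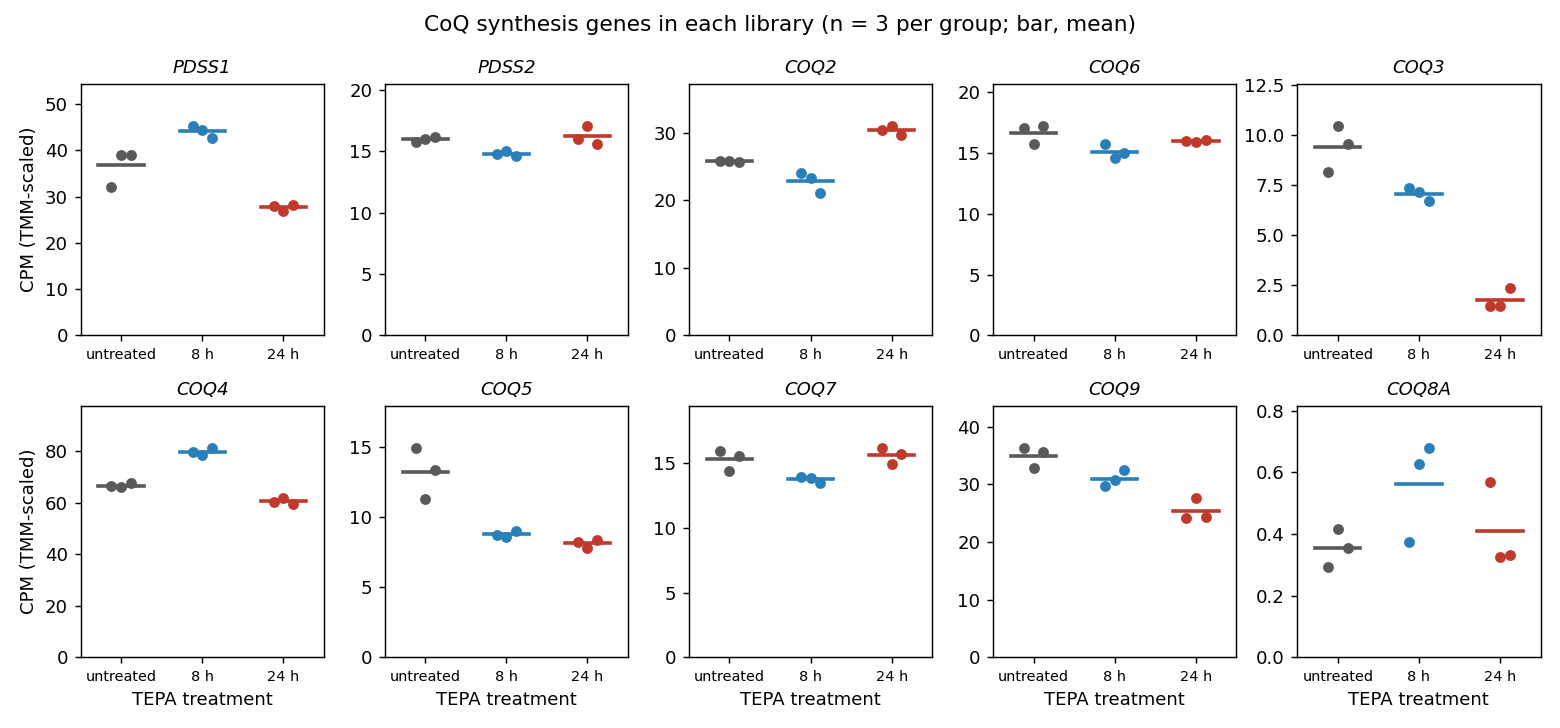
TMM-scaled counts (CPM) of the 10 CoQ synthesis genes in each library, with 3 points per group and a bar at the group mean. COQ3 was between 1.47 and 2.36 CPM in the 24 h libraries and between 8.18 and 10.5 CPM in untreated cells, PDSS1 and COQ4 were highest at 8 h, and COQ2 was highest at 24 h.

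Of the other 9 genes at 8 h, PDSS1 and COQ4 were called higher and COQ2, COQ5 and COQ9 lower at an adjusted p under 0.05. Of all genes tested, 25.2% were called higher and 24.5% lower in that comparison, so 2 and 3 of 9 are close to the share of any genes. At 24 h COQ2 was called higher and PDSS1, COQ4, COQ5 and COQ9 lower, beside 25.7% of all genes called higher and 26.8% lower. From 8 h to 24 h COQ2 and COQ7 were called higher and PDSS1, COQ4 and COQ9 lower, beside 26% of all genes called higher and 28.8% lower.

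The median log2 fold change of the 9 genes was −0.14 at 8 h, −0.058 at 24 h and −0.11 between the times, where the medians over all genes were −0.0013, 0.0023 and −0.016. In bulk RNA, a smaller number of cells with a transcript and less of the transcript per cell cannot be told apart. Calls thus went in both directions at both times, and the steps are described here in pathway order.

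**Figure D2:**
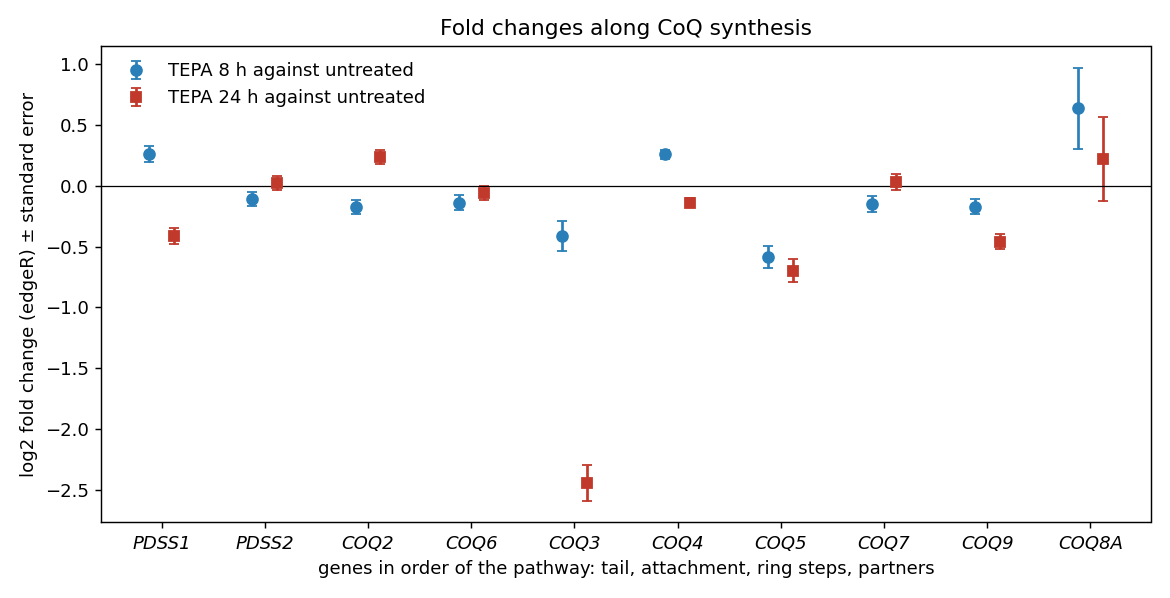
Log2 fold change (edgeR) with its standard error for each CoQ synthesis gene in pathway order, TEPA 8 h (circles) and 24 h (squares) against the same 3 untreated libraries. COQ3 was at −2.44 at 24 h, the other genes lay between −0.70 and 0.64, and PDSS1 and COQ4 lay above 0 at 8 h and below 0 at 24 h.

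PDSS1, a subunit of the tail synthase, rose at 8 h and fell below its untreated level at 24 h. It was at 32.2, 39.1 and 39.0 CPM in untreated cells, 45.3, 44.4 and 42.7 CPM at 8 h, and 27.9, 26.9 and 28.1 CPM at 24 h. The 3 groups did not overlap, although untreated replicate 1 stood below its 2 companions. The log2 fold change was 0.26 ± 0.064 (SE) at 8 h (edgeR adjusted p = 0.00298) and −0.41 ± 0.066 at 24 h (edgeR adjusted p = 7.3e-05). The difference between the times was −0.67 ± 0.065 (edgeR adjusted p = 3.9e-07), so the level at 24 h was 1.60-fold lower than at 8 h.

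PDSS2, the partner subunit, did not pass the test at either time. It was at 15.8, 16.0 and 16.1 CPM in untreated cells, 14.8, 15.0 and 14.6 CPM at 8 h, and 16.0, 17.1 and 15.6 CPM at 24 h. The 8 h libraries lay just below the other groups, which overlapped each other. Its log2 fold change was −0.11 at 8 h (95% interval −0.24 to 0.020, edgeR adjusted p = 0.15) and 0.024 at 24 h (−0.10 to 0.15, edgeR adjusted p = 0.76). From 8 h to 24 h the difference was 0.13 (edgeR adjusted p = 0.074). That difference passed the test, at 0.16 and an adjusted p of 0.0354, when only the libraries of these 2 groups were fitted with edgeR.

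COQ2, which attaches the tail to the ring, was the only one of the 9 genes called higher at 24 h. It was at 25.8, 25.8 and 25.6 CPM in untreated cells, 24.1, 23.3 and 21.1 CPM at 8 h, and 30.5, 31.1 and 29.6 CPM at 24 h. The untreated libraries were almost level and the groups did not overlap. The 8 h log2 fold change of −0.17 ± 0.057 passed the test (edgeR adjusted p = 0.019), but not without TEPA 8 h replicate 3, the lowest library (−0.13, edgeR adjusted p = 0.094). At 24 h the log2 fold change was 0.24 ± 0.055 (edgeR adjusted p = 0.0018), and COQ2 rose by 0.41 ± 0.056 from 8 h to 24 h (edgeR adjusted p = 1.4e-05).

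The promoters of PDSS1, COQ2 and COQ5 are shown because, of the tested genes, COQ5 had the lowest and COQ2 the highest log2 fold change at 24 h and PDSS1 the largest difference between the times. The stretches are RefSeq sequence (GRCh38.p14) ending at or before the transcript start, without annotated exon bases. They lie at chr10:26697626-26697700 on the plus strand for PDSS1, chr4:83284915-83285048 on the minus strand for COQ2 and chr12:120529166-120529408 on the minus strand for COQ5. Capitals mark the GC box (GGGCGG) or the CCAAT box (CCAAT), searched on both strands.
PDSS1: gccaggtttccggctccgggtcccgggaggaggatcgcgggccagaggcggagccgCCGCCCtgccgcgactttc
COQ2: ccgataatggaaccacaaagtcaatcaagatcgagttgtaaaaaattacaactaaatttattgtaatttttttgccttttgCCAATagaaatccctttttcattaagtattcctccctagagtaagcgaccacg
COQ5: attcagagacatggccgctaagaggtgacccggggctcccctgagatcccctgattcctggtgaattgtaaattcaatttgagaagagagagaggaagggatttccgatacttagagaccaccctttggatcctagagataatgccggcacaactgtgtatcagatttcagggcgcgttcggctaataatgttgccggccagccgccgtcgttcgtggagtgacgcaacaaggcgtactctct
The PDSS1 stretch held 1 GC box, the COQ2 stretch held 1 CCAAT box, and the COQ5 stretch held neither. In the whole promoter windows, which also take in exon bases, PDSS1 held 1 GC box, COQ2 held 1 GC box and 2 CCAAT boxes, and COQ5 again held neither. Of all 35116 such windows, 45% held a GC box and 34.6% a CCAAT box, so either match is common. COQ3 and COQ4 have no entry.

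COQ6, a flavin monooxygenase that hydroxylates the ring, did not pass the test in any comparison. It was at 17.0, 15.7 and 17.2 CPM in untreated cells, 15.7, 14.6 and 15.0 CPM at 8 h, and 16.0, 15.9 and 16.0 CPM at 24 h, so the untreated range reached into both treated groups. The log2 fold change was −0.14 at 8 h (95% interval −0.27 to −0.0059, edgeR adjusted p = 0.078) and −0.058 at 24 h (−0.19 to 0.072, edgeR adjusted p = 0.45). Untreated replicate 2, the lowest untreated library, held the 8 h result at that side: without it the value was −0.19 (edgeR adjusted p = 0.0304). From 8 h to 24 h the difference was 0.080 (−0.052 to 0.21, edgeR adjusted p = 0.29).

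COQ4, which takes part in removing the ring's carboxyl group, moved as PDSS1 did, up at 8 h and below untreated at 24 h. It was at 66.4, 66.0 and 67.7 CPM in untreated cells, 79.6, 78.6 and 81.4 CPM at 8 h, and 60.4, 61.9 and 59.5 CPM at 24 h. The replicates of each group stood within a few CPM of one another and the groups did not overlap. The log2 fold change was 0.26 ± 0.038 at 8 h (edgeR adjusted p = 3.6e-05) and −0.14 ± 0.038 at 24 h (edgeR adjusted p = 0.0063). It fell by 0.40 on the log2 scale from 8 h to 24 h (edgeR adjusted p = 3.3e-07).

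COQ5, the methyltransferase that adds a methyl group to a ring carbon, fell at both times and had the largest change past the test among the 9 genes. It was at 15.0, 11.3 and 13.3 CPM in untreated cells, 8.75, 8.57 and 9.01 CPM at 8 h, and 8.20, 7.83 and 8.34 CPM at 24 h. The untreated libraries spread widely (13.2 ± 1.82 CPM, SD, n = 3) but every one was above every treated library. The log2 fold change was −0.59 ± 0.092 at 8 h (edgeR adjusted p = 7.8e-05) and −0.70 ± 0.092 at 24 h (edgeR adjusted p = 1.1e-05), a level 1.62-fold lower. Between the times the difference of −0.11 did not pass (95% interval −0.31 to 0.091, edgeR adjusted p = 0.34). The other methyltransferase of the ring, COQ3, was 1.33-fold lower than untreated at 8 h and 5.43-fold lower at 24 h, with no test.

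COQ7, a di-iron hydroxylase of the ring, differed between the 2 times but not from untreated cells. It was at 15.9, 14.4 and 15.5 CPM in untreated cells, 13.9, 13.9 and 13.4 CPM at 8 h, and 16.2, 14.9 and 15.7 CPM at 24 h. The 8 h libraries were below all others, and the untreated and 24 h libraries overlapped. Its log2 fold change was −0.15 at 8 h (95% interval −0.29 to −0.012, edgeR adjusted p = 0.067) and 0.032 at 24 h (−0.10 to 0.17, edgeR adjusted p = 0.70). Without untreated replicate 2 the 8 h value was −0.20 (edgeR adjusted p = 0.0269). The difference from 8 h to 24 h was 0.18 ± 0.065 (edgeR adjusted p = 0.025) and missed the threshold without TEPA 8 h replicate 3 (edgeR adjusted p = 0.0758), TEPA 24 h replicate 1 (0.107) or TEPA 24 h replicate 3 (0.0548).

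COQ9, the lipid-binding partner of COQ7, fell at 24 h. It was at 36.4, 32.8 and 35.6 CPM in untreated cells, 29.8, 30.7 and 32.6 CPM at 8 h, and 24.2, 27.6 and 24.4 CPM at 24 h. The groups did not overlap, but the highest 8 h library came close to the lowest untreated one. The log2 fold change was −0.46 ± 0.062 at 24 h (edgeR adjusted p = 1.5e-05) and the difference from 8 h to 24 h was −0.29 ± 0.063 (edgeR adjusted p = 0.0010).

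The 8 h value of COQ9, −0.17 ± 0.062, passed narrowly (edgeR adjusted p = 0.032). That call was lost when untreated replicate 1 (edgeR adjusted p = 0.0847), untreated replicate 3 (0.0826), TEPA 8 h replicate 1 (0.102) or TEPA 8 h replicate 2 (0.0791) was left out. COQ7 and COQ9 act as partners, and their 24 h values lay on opposite sides of 0, with only that of COQ9 past the test. Whether these 2 changes differ from each other was not tested.

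COQ8A, the kinase-like protein, was close to the limit of detection. It had 11, 19 and 14 counts in untreated cells, 15, 24 and 25 at 8 h, and 29, 14 and 12 at 24 h, and all groups overlapped. Its log2 fold change was 0.64 at 8 h (95% interval −0.077 to 1.35, edgeR adjusted p = 0.13) and 0.22 at 24 h (−0.51 to 0.96, edgeR adjusted p = 0.61), so a change was not detectable at this depth. In GENCODE v44, 2761 of its 4736 exon bases (58.3%) are shared with a gene model without a symbol on the same strand. Reads shared by genes are left out by default in the counting program, and whether this lowered the COQ8A counts was not tested.

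Levels of different genes were compared only after division by the length of the MANE Select transcript, as CPM per kilobase. In untreated cells COQ4 was highest at 53.6, followed by PDSS1 at 23.2, COQ9 at 21.4, COQ2 at 16.9, COQ5 at 8.77, COQ6 at 7.89, COQ3 at 7.11, COQ7 at 5.79, PDSS2 at 4.51 and COQ8A at 0.124. The libraries of PDSS1 and COQ9 overlapped, as did those of COQ5 and COQ6 and those of COQ6 and COQ3, so these neighbours in the order could not be separated. At 24 h COQ2 stood second with 19.9 and COQ3 ninth with 1.34 CPM per kilobase, below PDSS2 at 4.59. The order depends on the length used: with all annotated exon bases of each gene, PDSS1 came before COQ4 in every group.

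**Figure D3:**
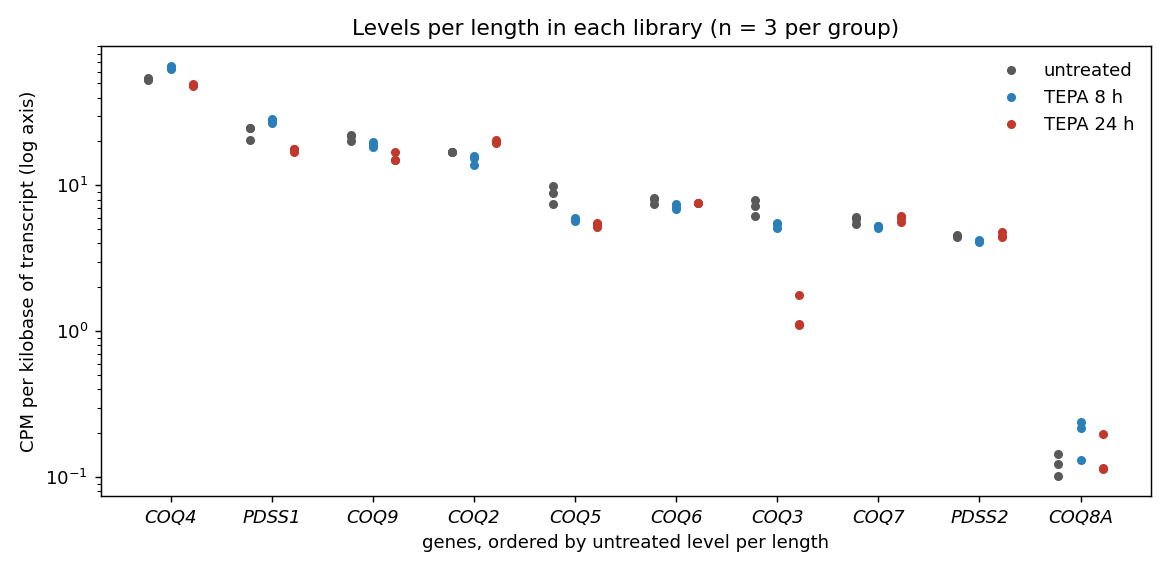
CPM per kilobase of transcript in each library (log axis), genes ordered by their untreated level, 3 points per group. COQ3 dropped from between 6.18 and 7.91 in untreated cells to between 1.11 and 1.78 at 24 h, while COQ8A stayed near 0.1 to 0.24 in all groups.

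Several of these genes lie beside or across another gene, and reads were counted with strand. The outer annotated start of COQ9 (chr16:57447425-57461270) lies 5 bases from that of CIAPIN1, an iron-sulfur cluster assembly gene on the opposite strand. CIAPIN1 was at 61.7, 61.1 and 61.4 CPM in untreated cells, 60.9, 57.1 and 58.9 CPM at 8 h, and 45.7, 48.0 and 42.7 CPM at 24 h. Its 24 h libraries were below all others, and its log2 fold change was −0.058 at 8 h (edgeR adjusted p = 0.32) and −0.43 at 24 h (edgeR adjusted p = 1.4e-06), beside −0.17 and −0.46 for COQ9.

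The outer start of COQ4 lies 97 bases from that of TRUB2, a mitochondrial RNA modifying gene on the opposite strand. TRUB2 fell at 8 h (−0.23 on the log2 scale) and at 24 h (−0.20), where COQ4 was at 0.26 and −0.14. COQ5 overlaps RNF10, a ubiquitin ligase gene on the opposite strand, over 79 exon bases. This overlap uses the outer annotated start of COQ5 (position 120534434), which lies upstream of the promoter stretch shown above. RNF10 was called lower at 8 h (−0.28) and at 24 h (−0.22), beside −0.59 and −0.70 for COQ5. ABI1, across PDSS1 on the other strand, was called lower at both times (−0.30 and −0.21). FAM161B, across COQ6, was called higher at both times (0.43 and 0.68), and ENTPD5, which also overlaps COQ6, was higher at 8 h (0.22) and lower at 24 h (−0.41), where COQ6 itself did not pass the test.

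The genes whose level followed COQ3 most closely over the 9 libraries were CCNA2 (Pearson r = 0.995), SHCBP1 (0.993), ARHGAP29 (0.991), FAM222A (0.991) and DUSP12 (0.990), among 10820 genes with a mean of at least 5 CPM. These correlations are a description over 9 libraries that fall into 3 groups. The 24 h log2 fold changes of these 5 genes were −0.51, −0.52, −0.65, −1.21 and −0.95. COQ3 was picked on its low 24 h level and these genes for following it, so their lower 24 h levels are no separate result.

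Of 10 genes that act directly beside the synthesis enzymes, 4 were called lower and 0 higher at 8 h, and 5 were called lower and 1 higher at 24 h, with median log2 fold changes of −0.16 and −0.27. Of all genes tested, 24.5% were called lower and 25.2% higher at 8 h, and 26.8% lower and 25.7% higher at 24 h. COQ10A, a CoQ-binding protein of the START-like family, was at 9.14, 10.1 and 10.0 CPM in untreated cells, 6.45, 6.67 and 6.45 CPM at 8 h, and 6.18, 6.32 and 5.95 CPM at 24 h. Both treated groups lay below untreated cells, with a log2 fold change of −0.58 at 8 h (edgeR adjusted p = 1.8e-05) and −0.67 at 24 h (edgeR adjusted p = 3.5e-06). Its paralog COQ10B was at 43.0, 44.5 and 45.0 CPM in untreated cells, 42.2, 37.7 and 38.3 CPM at 8 h, and 48.5, 48.5 and 53.5 CPM at 24 h. COQ10B thus fell by 0.16 at 8 h and rose by 0.18 at 24 h on the log2 scale (edgeR adjusted p = 0.020 and 0.0095), and rose by 0.35 between the times (edgeR adjusted p = 5.5e-05).

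The 8 h call of COQ10B was lost without untreated replicate 3 (edgeR adjusted p = 0.0576), TEPA 8 h replicate 2 (0.0869) or TEPA 8 h replicate 3 (0.0695), and the 24 h call without TEPA 24 h replicate 3 (0.0521). COQ8B, the paralog of COQ8A, was at 20.0, 16.9 and 16.6 CPM in untreated cells, 13.7 to 14.8 CPM at 8 h and 13.1 to 15.2 CPM at 24 h. It was lower at 8 h (−0.31, edgeR adjusted p = 0.0040) and at 24 h (−0.32, edgeR adjusted p = 0.0028). STARD7, a lipid transfer protein that also carries CoQ, fell by 0.15 and 0.21 on the log2 scale (edgeR adjusted p = 0.0037 and 0.00027).

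PARL, the protease that processes STARD7, passed at 24 h only (−0.42, edgeR adjusted p = 0.034), as did HPDL, a dioxygenase-like protein of head group synthesis (−0.90, edgeR adjusted p = 0.040). HPDL had 8 to 38 counts, and its 24 h and untreated libraries overlapped. Neither call was made by DESeq2, whose adjusted p was 0.0681 for PARL and 0.0719 for HPDL, and each was lost without untreated replicate 2 (edgeR adjusted p = 0.150 for PARL and 0.0734 for HPDL), TEPA 24 h replicate 1 (0.187 and 0.111) or TEPA 24 h replicate 3 (0.0592 and 0.145). The HPDL call was also lost without untreated replicate 1 (edgeR adjusted p = 0.138) and with a replicate block (−0.91, edgeR adjusted p = 0.0570). The phosphatase PPTC7, the reductase RTN4IP1, and FDX2 and FDXR of the ferredoxin system did not pass at either time. Their 24 h log2 fold changes were −0.078, 0.11, −0.81 and −0.070. FDX2 had 8 to 30 counts, and its 24 h and untreated libraries overlapped. Without untreated replicate 1 FDX2 passed at 24 h (−1.03, edgeR adjusted p = 0.0249).

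Of 6 genes that supply the tail through mevalonate, 4 were called lower and 0 higher at 8 h, and likewise at 24 h, where 24.5% and 26.8% of all genes were called lower and 25.2% and 25.7% higher. The extremes at 8 h were mevalonate kinase MVK (−1.03 on the log2 scale, edgeR adjusted p = 1.1e-07) and farnesyl diphosphate synthase FDPS (−0.27, edgeR adjusted p = 0.0039). At 24 h they were HMGCS1 (−0.67, edgeR adjusted p = 3.7e-07) and IDI1 (−0.14, edgeR adjusted p = 0.046). The 24 h count was 2 without untreated replicate 1 or without TEPA 24 h replicate 1. From 8 h to 24 h, 4 of the 6 were called higher and 0 lower, from PMVK (0.16, edgeR adjusted p = 0.012) to IDI1 (0.76, edgeR adjusted p = 2.2e-08), beside 26% of all genes called higher and 28.8% lower. The median log2 fold change of the 6 genes was −0.41 at 8 h and −0.18 at 24 h.

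The 4 other genes that use farnesyl diphosphate gave 1 call higher and 2 lower at 8 h, and 1 of each at 24 h, with medians of −0.34 and −0.097. Among all genes 25.2% were called higher and 24.5% lower at 8 h, and 25.7% and 26.8% at 24 h, so 1 of 4 is the share of any genes. FDFT1, which turns it to squalene, was at −0.82 at 8 h (edgeR adjusted p = 2.8e-06), and DHDDS of dolichol synthesis at 0.13 (edgeR adjusted p = 0.036). DESeq2 did not make the DHDDS call, and 0 genes were higher at 8 h without untreated replicate 1 or 3 or TEPA 8 h replicate 2 or 3. GGPS1, which makes geranylgeranyl diphosphate, was lower at 8 h (−0.63), and at 24 h (0.31, edgeR adjusted p = 0.015) it was called higher although its libraries overlapped the untreated ones. It rose by 0.93 between the times (edgeR adjusted p = 1.5e-06), and NUS1, the partner of DHDDS, was at −0.20 at 24 h (edgeR adjusted p = 0.011). The 24 h count was 0 higher without untreated replicate 2 or 3 or TEPA 24 h replicate 2, and it was 2 lower without untreated replicate 2 and 0 lower without untreated replicate 3. DHDDS was at −0.18 between the times (edgeR adjusted p = 0.0061).

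The ring methyltransferases COQ3 and COQ5 use S-adenosylmethionine, and 5 genes of its supply were read beside them. At 8 h 2 were called higher and 0 lower, MAT2A, which makes the methyl donor (0.25, edgeR adjusted p = 0.00024), and AHCY, which clears its product (0.11, edgeR adjusted p = 0.019). Over all genes, 25.2% were called higher and 24.5% lower at 8 h, and 25.7% and 26.8% at 24 h. The 8 h count was 1 higher without untreated replicate 1 or any of the 8 h libraries, and 1 lower without untreated replicate 2 or TEPA 8 h replicate 1. At 24 h 2 were higher and 2 lower (medians −0.0048 at 8 h and 0.067 at 24 h), with SLC25A26, the mitochondrial carrier of the donor, at 0.44 (edgeR adjusted p = 1.8e-05) and methionine synthase MTR at −0.22 (edgeR adjusted p = 0.00042). Between the times SLC25A26 rose by 0.45 (edgeR adjusted p = 1.5e-05) and MAT2A fell by 0.45 on the log2 scale (edgeR adjusted p = 5.4e-07).

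Among 12 genes of enzymes that reduce CoQ outside complex I, 11 could be tested, since CHDH had 0 to 7 counts. At 8 h 2 were called higher and 4 lower, and at 24 h 1 higher and 4 lower, with medians of −0.10 and −0.086. The shares over all genes were 25.2% higher and 24.5% lower at 8 h, and 25.7% and 26.8% at 24 h. ETFDH, which passes electrons from fatty acid oxidation to CoQ, had the largest rise at 24 h (1.09, edgeR adjusted p = 4.5e-10), from 20.5 ± 0.81 CPM (SD, n = 3) in untreated cells through 27.1 ± 1.56 CPM at 8 h to 43.7 ± 1.39 CPM. DHODH of pyrimidine synthesis was higher at 8 h (0.47, edgeR adjusted p = 0.00066) and fell by 0.47 from 8 h to 24 h (edgeR adjusted p = 0.00047). The sulfide oxidase gene SQOR was at −0.46 at 8 h (edgeR adjusted p = 0.00067), and PRODH, with 5 to 22 counts, at −1.46 at 24 h (edgeR adjusted p = 0.011).

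**Figure D4:**
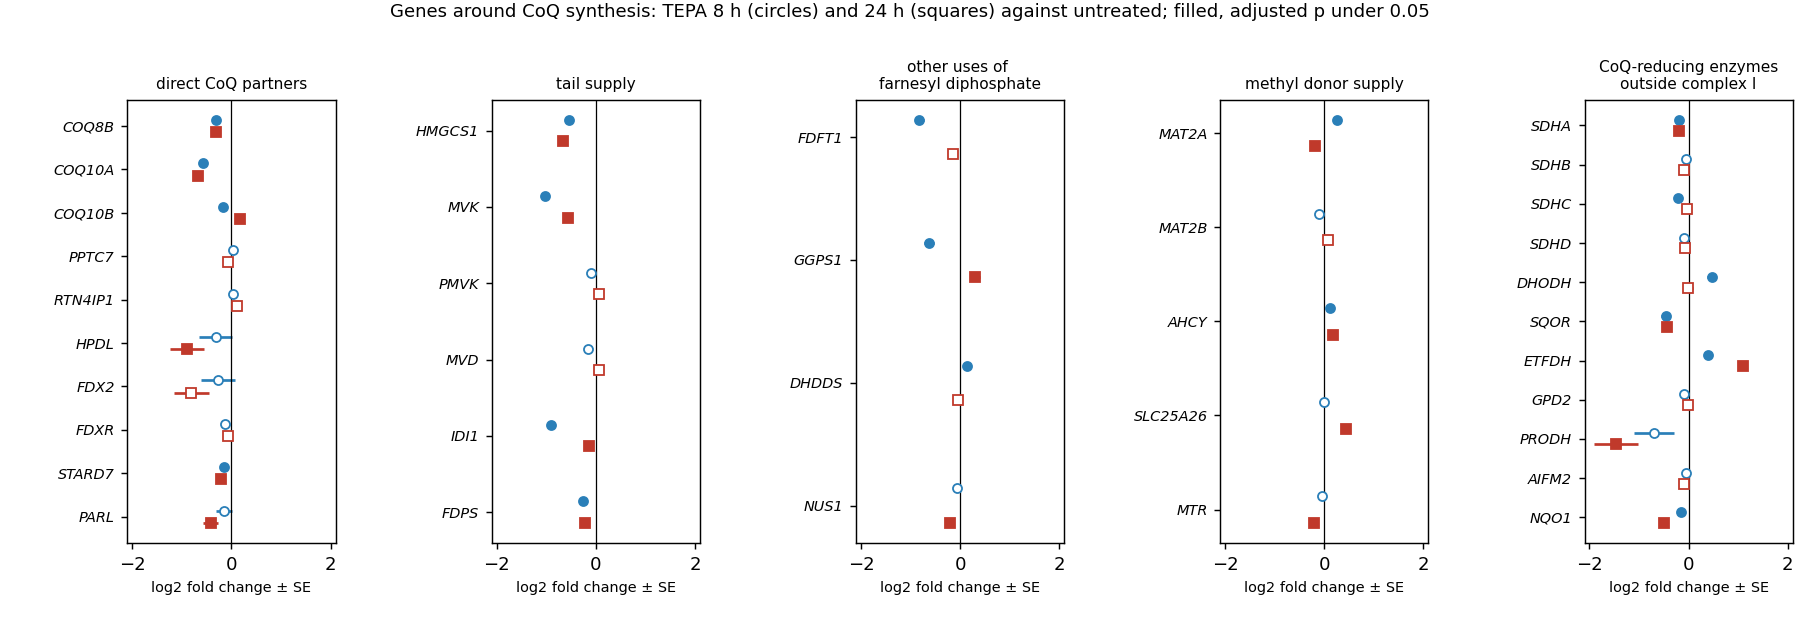
Log2 fold change (edgeR) with its standard error for the tested genes of 5 lists around CoQ synthesis, TEPA 8 h (circles) and 24 h (squares) against untreated cells, filled where the adjusted p was under 0.05. ETFDH stood at 1.09 at 24 h, COQ10A at −0.58 and −0.67, and MVK and IDI1 were lowest at 8 h among the tail supply genes.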

How the data were processed

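The deposited table holds raw gene counts, which the authors made from stranded paired-end mRNA libraries by FastQC, alignment to hg38 with HISAT2 and featureCounts, by gene name over exons with the reverse-strand setting (versions not given in the sources used here). The authors tested with DESeq2. Every sample column was used. Here all 9 libraries were fitted with edgeR 4.0.16 (R 4.3.3) using TMM factors, a minimum count of 10 (filterByExpr) and the quasi-likelihood test, and Benjamini-Hochberg adjustment over 16556 genes, with calls at 0.05. The common coefficient of biological variation was 0.0481. Intervals are 95%. Fitting was tested on simulated data. DESeq2 1.42.0, other scalings and filters, a replicate block, fits of 2 groups and leaving out libraries were alternatives. Positions and lengths come from GENCODE v44, a later annotation than the counting one, so lengths are approximate. The 10 genes and the lists were chosen with earlier results of these data known. Named were the 10 genes, their tested neighbours, the direct partners, each other list's extreme called genes and the 5 genes most like COQ3 (log2 CPM, prior count 2). One gene of the tail supply list is not reported here. COQ3 gets no p because it was picked on these libraries.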

Additional observations from a re-analysis of the deposited data

Results flagged for a closer look

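The level differed between the 2 treated groups, by the edgeR test of 24 h against 8 h, for 5 of the 9 tested CoQ synthesis genes and for COQ10B. The log2 difference was −0.67 for PDSS1, −0.40 for COQ4 and −0.29 for COQ9. It was 0.41 for COQ2, 0.18 for COQ7 and 0.35 for COQ10B. Of all genes, 26% were called higher and 28.8% lower in this comparison, so 5 of 9 is close to the share of any genes. All 3 replicates at 24 h lay on the stated side of all 3 replicates at 8 h for each of these 6 genes. The 2 groups were also apart for PDSS2, COQ5 and COQ6, which were not called. How many of all genes separate in this way was not counted, so the separation is a description and adds nothing to the calls.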

How the results depend on the processing

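Of 351 alternative log2 fold changes of the 9 tested genes, 339 kept their direction and side of the threshold. No value of these genes past the test changed sign. A limit of 0.5 on the log2 fold change left 0 genes higher (from 2) and 1 lower (from 3) at 8 h, 0 (from 1) and 1 (from 4) at 24 h, and 0 (from 2) and 1 (from 3) between the times, and the calls over all genes became 2943 (from 8216), 3095 (from 8688) and 3505 (from 9079). With this limit the direct partners called lower became 1 (from 4) at 8 h and 2 (from 5) at 24 h, the CoQ-reducing enzymes called lower 0 (from 4) and 1 (from 4), the tail supply genes called lower at 24 h 2 (from 4), and the methyl donor genes 0 in each direction at both times. Leaving out 1 library gave 2 to 5 genes lower at 8 h, where untreated replicate 2 decided the 5, and 1 to 2 higher between the times. Replicate numbers did not pair the libraries (correlations of same-numbered deviations from −0.0801 to 0.0383), and a replicate block moved COQ9 at 8 h to −0.17 with an edgeR adjusted p of 0.0546, changing no other call among these genes; HPDL at 24 h also missed with it (0.0570). Counting depth limits COQ8A, at 11 to 29 counts. The causes were not tested.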
